A study of Mus musculus with 6 samples.

Results

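Insulin-like growth factors (IGFs) act on follicle cells through the receptor IGF1R, and how much ligand reaches the receptor is set by secreted IGF binding proteins and by the proteases that cut them. The 10 genes described here encode the ligand IGF1, the clearance receptor IGF2R, the binding proteins IGFBP2 to IGFBP7 and the binding protein proteases PAPPA and PAPPA2. They were chosen by symbol, with earlier results of these data known. Each had 1 probe set that named it alone, so all 10 entered the comparison of 22180 genes. In the rodent ovary, granulosa cells of growing follicles make IGF1, which strengthens the action of follicle-stimulating hormone. IGF1R signals through phosphoinositide 3-kinase, AKT and MTOR, the kinase that the compound of this study inhibits. Binding proteins mostly hold IGFs away from the receptor, and cleavage by PAPPA releases IGF from IGFBP4 and IGFBP5.

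RNA came from cumulus-oocyte complexes (COCs), each an immature oocyte with the cumulus cells around it, from wildtype female mice. Their age is labelled both 21 and 23 days, and they had been primed for 46 h with 5 IU of equine chorionic gonadotropin. Groups of 100 COCs were kept with DMSO, the vehicle, or Torin1, an ATP-competitive MTOR inhibitor, both labelled 5 µM. Culture lasted 14 h or 16 h, since the labels give both times. Serum albumin at 3 mg/ml and milrinone at 5 µM were in every culture. Milrinone blocks the oocyte phosphodiesterase PDE3 and so keeps the oocyte in meiotic arrest. Gonadotropin, medium and milrinone are the same in both groups, so the DMSO samples carry these treatments too. There were 3 DMSO and 3 Torin1 arrays. The labels speak of 3 sets per group without tying them to animals or days, and each p-value therefore reflects the spread among these arrays alone, possibly of technical origin.

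Array medians ran from 11.1 to 12.0 intensity units. Torin1 sample 3 stood apart: over all genes its log2 differences from Torin1 samples 1 and 2 had SDs of 0.327 and 0.350, against 0.204 between those samples and 0.212 to 0.240 among DMSO samples. Its description carries the short name of Torin1 sample 2, although only 18 of 41345 probe sets had identical values on these arrays. Oocyte markers were well represented on all arrays, and 1 of 10 (Dppa3) was called higher with Torin1. All 10 had changes above 0, 9 of them without overlap between the groups, where 28.6% of all genes had none, and their summed intensity was 5107 to 5468 with DMSO and 5701 to 6215 with Torin1. Of 9 granulosa and cumulus markers 8 were called lower, and Fst, which changed by 0.16, was not called. Over all genes 5.13% were called higher and 6.94% lower. The summed intensity of these 9 markers was 3904 to 4180 with DMSO and 2320 to 2508 with Torin1. RNA of the whole complex was measured, so fewer cells of a type and less RNA per cell cannot be told apart. Values below are log2(intensity + 1), each change is the Torin1 mean minus the DMSO mean on that scale, ± its standard error (SE), and a gene is called where the Benjamini-Hochberg adjusted p of limma, a linear model with moderated variances fitted over all 22180 genes, is below 0.05.

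Promoter sequence is shown first for the called genes that the RefSeq promoter table holds, with Igfbp2 beside them. The stretch shown covers positions -50 to -21 from the annotated start (position -1 is the base just before it), where a TATA box usually lies. All the sequences are mouse, build GRCm38.p6, written 5′ to 3′ on the gene's strand. Capitals mark a match to one of the motifs searched. Igfbp2 was not called, and the start shown is the one with a match in this stretch, while its upstream start had none. Igf2r and Igfbp6, also not called, had matches in this stretch and are not shown.
Igf1, chr10:87861061-87861090, plus strand: aggagctggaactTGAATCActattctgga
Igfbp3, chr11:7213944-7213973, minus strand: tcctccgccaccccggcttctatatatcgg
Igfbp4, chr11:99041194-99041223, plus strand: gggggtgtggccagggggccggTATAAAgt
Igfbp7, chr5:77408066-77408095, minus strand: agcaccgggcggggcagcggctttaagggt
Igfbp2, chr1:72825337-72825366, plus strand, the downstream of its listed starts: gaaacaaaactTGAGTCAgtgaccaccggt

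Igfbp4 alone among these windows held the TATA box letters TATAAA, beginning at position -28. Other forms of the TATA box were not searched, and the Igfbp3 window reads tatatat near its end. The letters TGANTCA, a loose form of the AP-1 core TGA(G/C)TCA, began at position -37 of Igf1 and at position -39 of Igfbp2. The Igf1 match read TGAATCA, which is not that core, and the Igfbp2 match read TGAGTCA, which is. Over the whole 250 bases before a start, on both strands, TATAAA was present in 2 of the 10 entries of 9 members (Igfbp4 and Igfbp6) and in 12.4% of all 32851 promoter entries. The Igfbp6 match read TTTATA, the reverse complement, and began at position -148. TGANTCA was in 2 of the 10 (Igf1 and Igfbp2) and in 6.7% of all. The FOXO core GTAAACA, the insulin response core CAAAACA and the cAMP response element TGACGTCA were in 0 of the 10, against 3.2%, 5.6% and 1.5% of all. ACGTG, a hypoxia response core, was in 3 (Igfbp2, Igfbp7 and Igf2r, against 16.6%), and CCAAT in 3 (Igf1, Igfbp6 and Pappa2, against 33.8%). Matches of different motifs did not overlap in these entries, while ACGTG overlapped its own reverse complement in Igfbp2 and Igf2r. These are letter matches in 1 window, not measured binding sites. Pappa is not in the table.

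With Torin1 the binding protein transcripts Igfbp4, Igfbp3 and Igfbp7 and the protease transcript Pappa rose, and the ligand transcript Igf1 fell. Igfbp4 moved most, by 4.90-fold on the log2(intensity + 1) scale. Igf2r, Igfbp2, Igfbp5, Igfbp6 and Pappa2 were not called. Thus 4 of 10 were called higher and 1 lower, where 5.13% of all genes tested were called higher and 6.94% lower. Either direction was called in 5 of 10, against 12.1% of all genes. Only 1 of the 10 (Pappa2) had a mean over all 6 arrays below the median gene (4.17), whereas the shares of all genes include every dim gene. With DMSO alone the means of Pappa (3.52) and Igfbp3 (4.09) were below it too. The values of the groups did not overlap for 7 of the 10, against 28.6% of all genes, and the median change was 0.37 against 0.0098 over all genes. Because the 10 genes were chosen with earlier results of these data known, these counts describe the group and do not test it. The plot of each gene by array shows the values behind these counts.

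**Figure D1:**
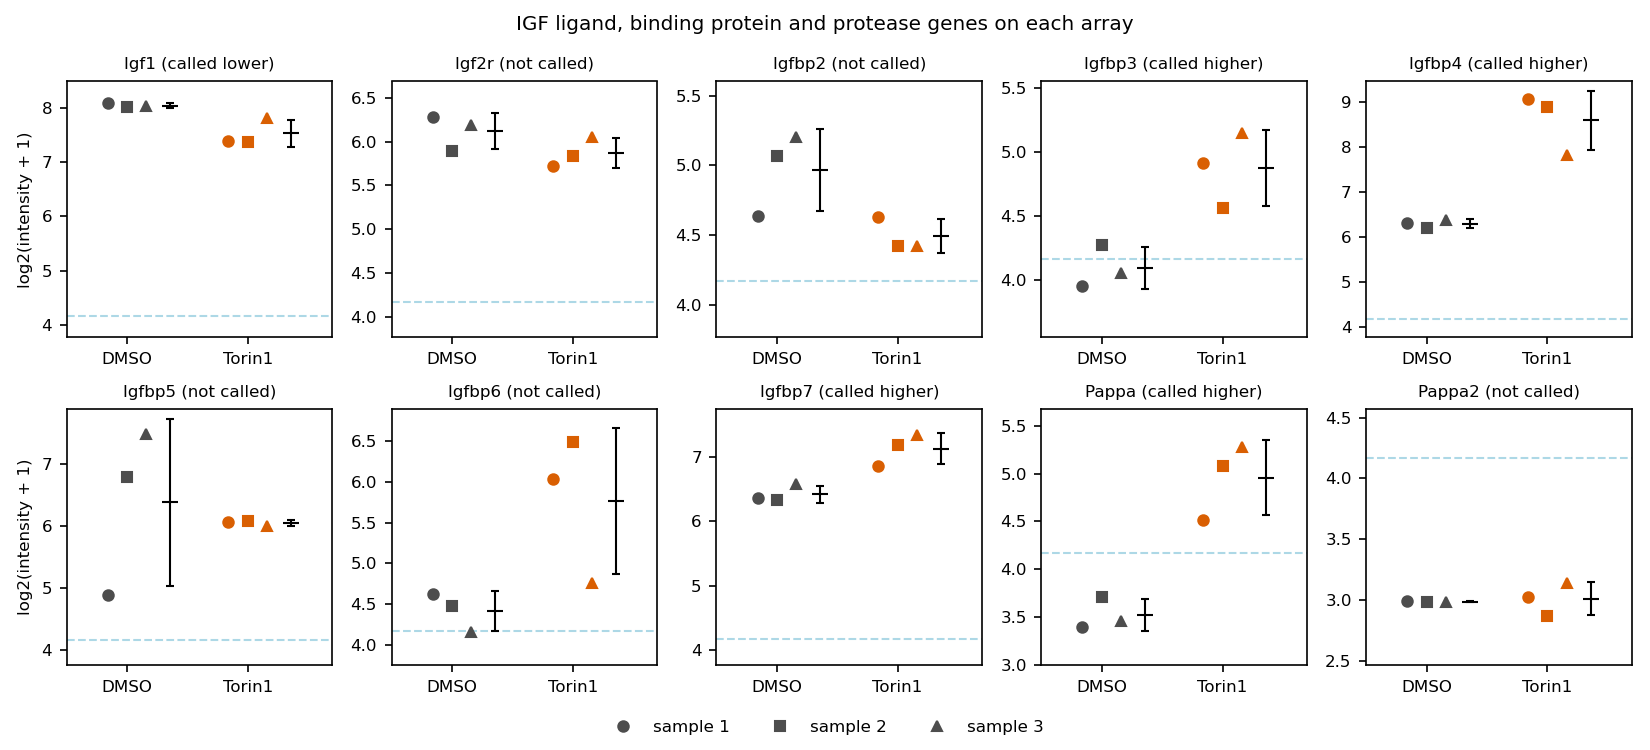
Levels of the 10 genes on each array, as log2(intensity + 1), with a separate vertical scale per gene; symbols mark sample 1, 2 and 3 of each group, the black bar and whiskers give the mean and SD of 3 arrays, and the dashed line is the median gene at 4.17. All 3 Torin1 values lie above all 3 DMSO values for Igfbp3, Igfbp4, Igfbp6, Igfbp7 and Pappa, and below them for Igf1 and, by 0.009, for Igfbp2.

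Igf1, the only IGF ligand gene of the group (probe set 17236288), was at 8.10, 8.02 and 8.04 in DMSO samples 1, 2 and 3. With Torin1 it was at 7.40, 7.38 and 7.83. The DMSO samples were nearly level with one another, Torin1 samples 1 and 2 were lowest, and Torin1 sample 3 lay between the groups' other values without reaching the DMSO range. The means were 8.05 ± 0.04 and 7.53 ± 0.25 (SD, n = 3 each), a change of -0.51 ± 0.13 (SE), with an adjusted p of 0.0444 in limma. The fall was 1.43-fold, with a 95% confidence interval of the log2 change from -0.82 to -0.21. This call was close to the threshold and was lost without any 1 of DMSO samples 1, 2 and 3 or Torin1 samples 1 and 2 (adjusted p in limma 0.108 to 0.138). Without Torin1 sample 3 the fall was 0.66 ± 0.08 and was called (adjusted p in limma 0.00242). The antisense gene Igf1os overlaps Igf1 in RefSeq and was not analysed here. Whether the probe set separates the strands is not given in the sources used here.

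Igf2r encodes the cation-independent mannose 6-phosphate receptor, which takes up IGF2 for breakdown in lysosomes and also sorts lysosomal enzymes. Its values were 6.29, 5.90 and 6.19 with DMSO and 5.72, 5.84 and 6.05 with Torin1. The groups overlapped, since Torin1 sample 3 was above DMSO sample 2. The change of -0.25 ± 0.13 was not called (adjusted p in limma 0.313), and its 95% interval ran from -0.57 to 0.06. Airn, the RNA transcribed across Igf2r from the opposite strand in the imprinted cluster, changed by 0.13 and was not called either (adjusted p in limma 0.723).

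Igfbp4 encodes a binding protein that keeps IGFs from the receptor until PAPPA cuts it (probe set 17256264). DMSO samples 1, 2 and 3 read 6.31, 6.19 and 6.38, and Torin1 samples 9.05, 8.88 and 7.83. The DMSO samples lay close together, and even the lowest Torin1 sample, number 3, was 1.44 above the highest DMSO sample. The means were 6.29 ± 0.10 and 8.59 ± 0.66 (SD, n = 3 each), and the rise of 2.29 ± 0.30 had a limma adjusted p of 0.0038. The 95% interval was 1.59 to 3.00. The call held without any 1 array, with rises from 2.06 to 2.67. Torin1 sample 3 lowered the estimate: without it the rise was 2.67 ± 0.10, with a limma adjusted p of 4.6e-05, where the alternatives tried ranged from 4.6e-05 to 0.0205.

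Igfbp6, whose protein binds IGF2 more tightly than IGF1, was likewise lowest among Torin1 samples in sample 3. Its values were 4.62, 4.47 and 4.15 with DMSO and 6.04, 6.50 and 4.76 with Torin1. Torin1 samples 1 and 2 were well above the DMSO range, whereas sample 3 was 0.14 above the highest DMSO sample. The change of 1.35 ± 0.41 (95% interval 0.38 to 2.32) was not called over all 6 arrays, with a limma adjusted p of 0.0844. Without Torin1 sample 3 it was 1.86 ± 0.18 and called (limma adjusted p 0.00114). Leaving out any 1 of the other arrays gave 0.99 to 1.46 and no call. In 1 alternative only genes whose higher group mean was above the median gene were kept before adjustment, so a gene dim in 1 group could stay. There Igfbp6 was called with the same change (limma adjusted p 0.0448, within a range of 0.00114 to 0.236 over the alternatives).

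Markers of other cell types were read beside Igfbp4 and Igfbp6, which vessel and stromal cells also express. Of 6 endothelial markers 1 was called higher and 5 were not called, where 5.13% of all genes were called higher and 6.94% lower. Their summed intensity was 104 to 109 with DMSO and 151 to 268 with Torin1, lowest in sample 3. Most of the rise in this sum was Cdh5, whose intensity was 15.8 to 16.7 with DMSO. In Torin1 samples 1, 2 and 3 the intensity of Cdh5 was 92.0, 148 and 45.5. The marker called was Cdh5, at 4.15, 4.08 and 4.07 with DMSO and 6.54, 7.22 and 5.54 with Torin1, so it shared the lower value in sample 3. Kdr was at 4.14, 3.96 and 3.84 with DMSO and 4.19, 4.59 and 4.64 with Torin1, without overlap, and its change of 0.49 ± 0.14 was not called (limma adjusted p 0.0716). Pecam1 changed by 0.20 ± 0.13 and was not called, and Tek, Vwf and Emcn stayed below the median gene in both groups. Of 10 theca and stroma markers 3 (Acta2, Ptch1 and Pdgfra) were called lower, and the sum was 590 to 719 with DMSO and 212 to 286 with Torin1. Of 6 leukocyte markers 1 (Cd68) was called higher, with sums of 58.2 to 63.6 and 67.9 to 73.4. Cyp17a1, Dcn, Lum, Ptprc and Adgre1 were below the median gene in both groups. Of 4 measured mural granulosa markers Inhba and Star were called higher and Inhbb lower, and the sums, 414 to 742 and 585 to 721, overlapped. The part of these markers in the changes of the binding protein genes was not tested.

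Igfbp3 and Igfbp7 rose by smaller amounts. Igfbp3, whose protein is the main IGF carrier of serum (probe set 17260474), was at 3.96, 4.27 and 4.05 with DMSO and 4.91, 4.56 and 5.15 with Torin1. All Torin1 samples were above all DMSO samples, by at least 0.29, and here sample 3 was the highest of its group. The means of 4.09 ± 0.16 and 4.87 ± 0.29 (SD, n = 3 each) differed by 0.78 ± 0.16 (SE; limma adjusted p 0.0220), or 1.72-fold, with a 95% interval of 0.40 to 1.16. Because the DMSO mean lay under the median gene (4.17), this rise is uncertain in size. Its call was lost without DMSO sample 1, DMSO sample 3 or Torin1 sample 1 (limma adjusted p 0.0809, 0.0838 and 0.0715), with rises of 0.71 to 0.76. It was also lost with a pseudocount of 16 in place of 1, where the change was 0.47 (limma adjusted p 0.0512).

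Igfbp7 encodes a relative of the binding proteins with low affinity for IGFs (probe set 17449084). It read 6.36, 6.33 and 6.57 with DMSO and 6.86, 7.19 and 7.34 with Torin1, with 0.28 between the closest samples of the groups. From 6.42 ± 0.14 to 7.13 ± 0.25 (SD, n = 3 each), the rise was 0.71 ± 0.14 (SE; limma adjusted p 0.0179), or 1.64-fold, with a 95% interval of 0.38 to 1.04. The rise was 0.66 to 0.68 and not called without DMSO sample 1, DMSO sample 2 or Torin1 sample 2 (limma adjusted p 0.0678, 0.0684 and 0.0586). Without Torin1 sample 3 it was 0.60 and called (limma adjusted p 0.0260). Polr2b, a subunit gene of RNA polymerase II whose span overlaps Igfbp7 in RefSeq, changed by -0.07 and was not called (limma adjusted p 0.788).

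Igfbp2 and Igfbp5 are neighbouring genes for binding proteins, and neither was called. Igfbp2 was at 4.64, 5.07 and 5.20 with DMSO and 4.63, 4.42 and 4.42 with Torin1, so DMSO sample 1 almost met the highest Torin1 sample. Its change was -0.48 ± 0.15 (95% interval -0.84 to -0.12, limma adjusted p 0.0983). Without DMSO sample 1 it was -0.64 and called lower (limma adjusted p 0.0226, the lowest of the alternatives, which reached 0.266).

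Igfbp5, whose protein is cut by both PAPPA and PAPPA2, had the widest spread of the group within DMSO. Its DMSO values were 4.89, 6.79 and 7.48, while the Torin1 values of 6.07, 6.08 and 5.99 lay within 0.089 of each other and inside the DMSO range. The change of -0.34 ± 0.59 was not called (limma adjusted p 0.835), and its interval from -1.72 to 1.05 holds rises and falls of 2-fold. DMSO sample 1 set this result. Without it the change was -1.09 ± 0.20 and called lower (limma adjusted p 0.0291), whereas without DMSO sample 3 the change was 0.21 and not called (limma adjusted p 0.917). Stc1, which encodes an inhibitor of PAPPA, was at 3.67, 5.68 and 5.60 with DMSO and 5.13, 5.73 and 3.40 with Torin1. It was low in DMSO sample 1, as Igfbp5 was, and also in Torin1 sample 3, where Igfbp5 was not.

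**Figure D2:**
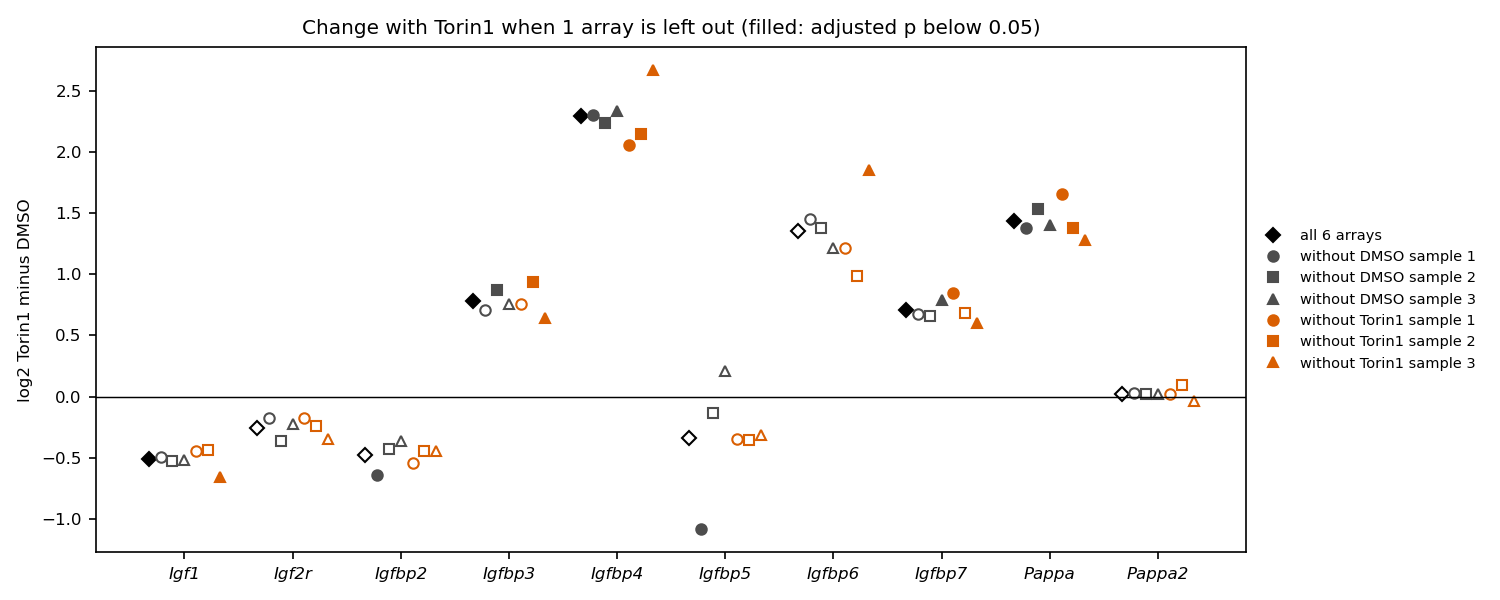
Log2 change with Torin1 of the 10 genes over all 6 arrays (black diamonds) and with 1 array left out (grey, a DMSO array; orange, a Torin1 array); filled symbols have an adjusted p below 0.05 in limma and open symbols do not. Igfbp4 and Pappa are filled at every setting, Igf1 only over all 6 arrays and without Torin1 sample 3, and Igfbp5 turns from -1.09 without DMSO sample 1 to 0.21 without DMSO sample 3.

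Pappa encodes the metalloprotease that cuts IGFBP4, and it rose together with the Igfbp4 transcript (probe set 17414802). DMSO samples 1, 2 and 3 were at 3.40, 3.71 and 3.46 and Torin1 samples at 4.52, 5.08 and 5.28. The lowest Torin1 sample was 0.81 above the highest DMSO sample. Unlike Igfbp4, Pappa had its highest value in Torin1 sample 3. The means of 3.52 ± 0.16 and 4.96 ± 0.40 (SD, n = 3 each) gave a rise of 1.44 ± 0.20 (SE; limma adjusted p 0.00456), or 2.71-fold, with a 95% interval of 0.97 to 1.90. The call held without any 1 array, with rises of 1.28 to 1.66. Because the DMSO mean was below the median gene, the size of the rise depends on the pseudocount, and with 16 in place of 1 it was 0.81 and still called.

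Pappa2, the related protease that cuts IGFBP3 and IGFBP5, read 2.99 in each of the 3 DMSO samples and 3.03, 2.87 and 3.14 with Torin1. All of these are below the median gene, so the array gives little information on this transcript. The change was 0.02 ± 0.09, not called (limma adjusted p 0.934), with an interval from -0.18 to 0.23.

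Torin1 sample 3 deviated from samples 1 and 2 in different directions by gene. Against the mean of those samples it was lower by a difference of -1.14 for Igfbp4 and -1.51 for Igfbp6, and higher by 0.44 for Igf1, 0.41 for Igfbp3, 0.48 for Pappa and 0.32 for Igfbp7. For Igf1, Igfbp4 and Igfbp6 it was therefore nearer to the DMSO samples, and for Igfbp3, Igfbp7 and Pappa farther from them.

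The receptors, carriers and adaptors of the IGF system were called about as often as genes in general, at 2 of 19 against 12.1% of all genes. Of 21 listed genes 19 were measured, Igf2bp1 and Igf2bp2 being named alone by no probe set. In limma 0 of these were called higher, 2 lower and 17 were not called (with unadjusted p below 0.05, 2 were higher and 2 lower), with a median change of -0.02 against 0.0098 over all genes. Igf1r, the receptor for IGF1, was at 8.20, 8.14 and 8.23 with DMSO and 8.11, 8.20 and 8.20 with Torin1, a change of -0.02 ± 0.07 (limma adjusted p 0.918) that was not called. Igf2, the second ligand, and Igfbp1, the neighbour of Igfbp3, were below the median gene in both groups and changed by -0.02 ± 0.09 and -0.23 ± 0.12, neither called (limma adjusted p 0.944 and 0.305).

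The called genes of this list were Grb14 and Irs1, which act inside the cell at the receptors. Grb14, whose protein binds the insulin receptor and dampens its signal, was at 7.24, 6.97 and 6.96 with DMSO and 4.36, 4.18 and 5.42 with Torin1. It fell by 2.40 ± 0.31 (limma adjusted p 0.00351), and as with Igfbp4, Torin1 sample 3 was nearest to DMSO. Irs1, a docking protein of both receptors, fell from 6.60, 6.77 and 7.10 to 5.28, 5.63 and 5.30, by 1.42 ± 0.15 (limma adjusted p 0.00175). A second, dimmer probe set of Irs1 changed by -0.21. Both genes stayed called without any 1 array.

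**Figure D3:**
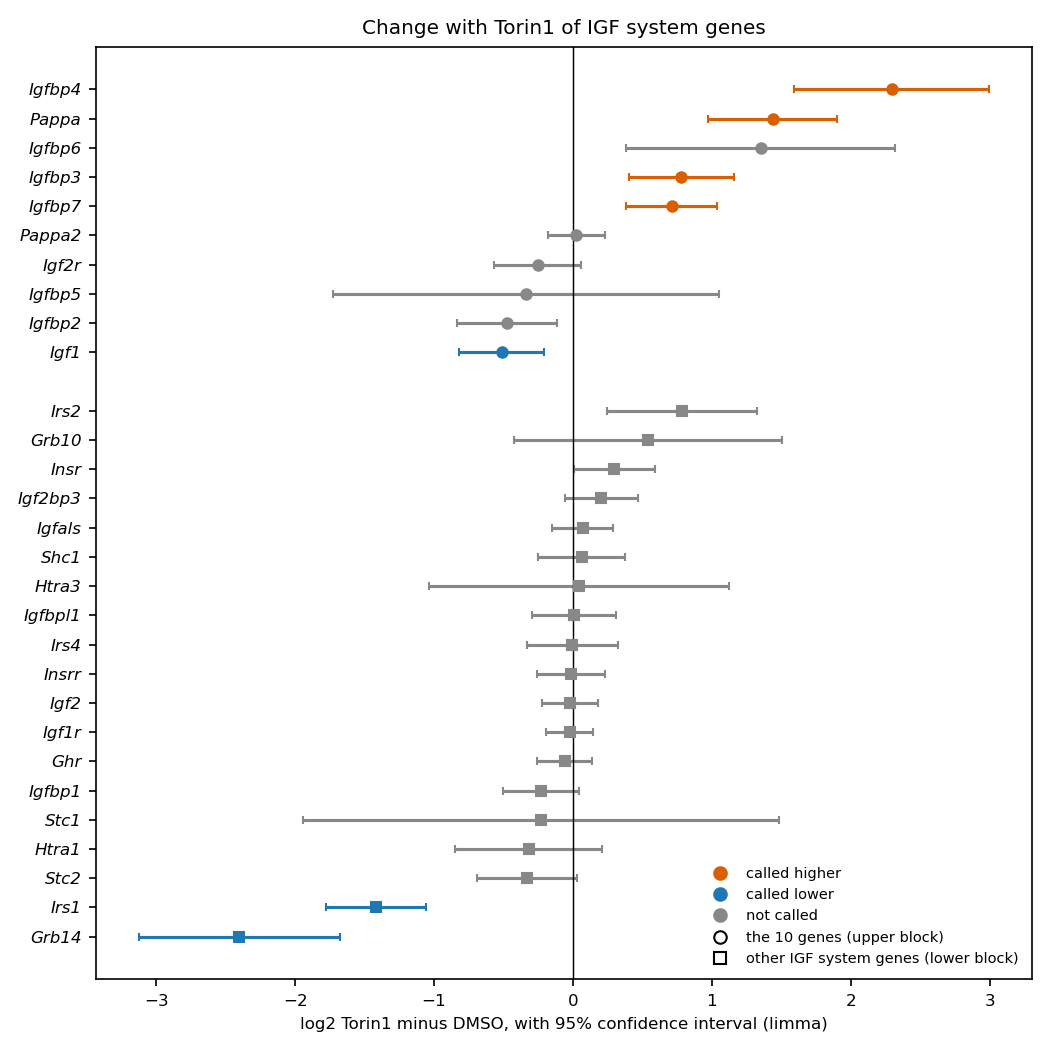
Log2 change with Torin1 and its 95% confidence interval from limma for the 10 genes (circles, upper block) and 19 other IGF system genes (squares, lower block), coloured by call. Igfbp4 lies farthest right at 2.29 and Grb14 farthest left at -2.40, and Igf1r sits at -0.02 with a narrow interval.

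**Figure D4:**
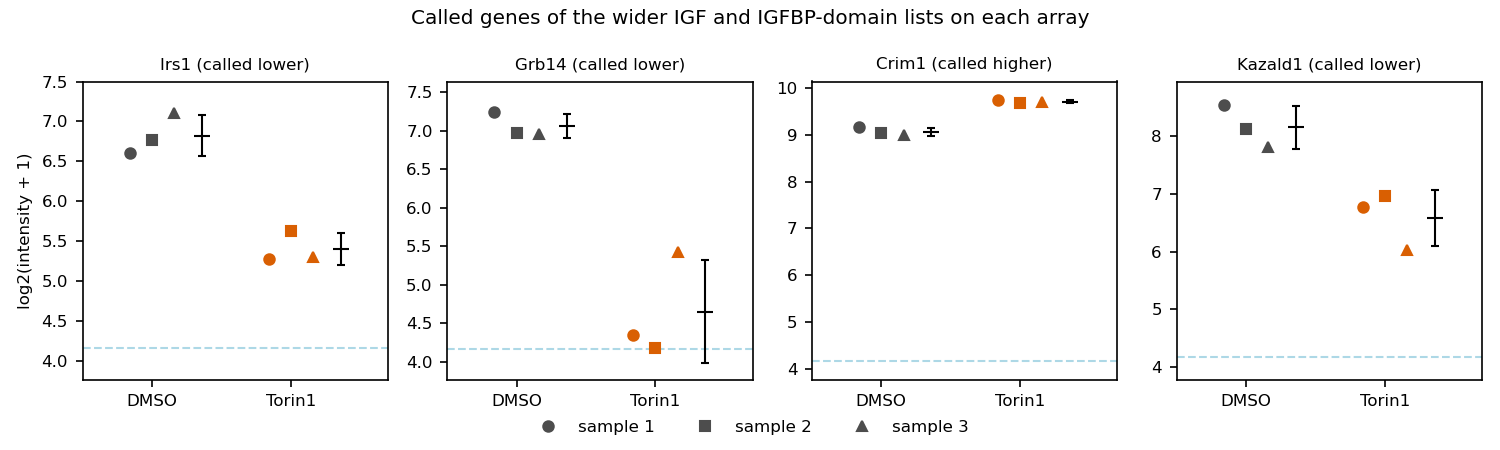
Levels of Irs1, Grb14, Crim1 and Kazald1 on each array, as log2(intensity + 1), with a separate vertical scale per gene; symbols mark sample 1, 2 and 3, the black bar and whiskers give the mean and SD of 3 arrays, and the dashed line is the median gene at 4.17. The groups do not overlap for any of these 4 genes, and Crim1 is the 1 that rises.

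Among the genes not called, Irs2 changed by 0.79 ± 0.23 (limma adjusted p 0.0741), Insr, the insulin receptor gene, by 0.30 ± 0.12 (limma adjusted p 0.200) and Stc2, for another PAPPA inhibitor, by -0.33 ± 0.15 (limma adjusted p 0.254). Without Torin1 sample 3, Irs2 and Htra3 were called as well, so 4 genes of the list passed in place of 2. Htra3, a secreted protease gene with an IGFBP-type domain, was at 7.43, 7.40 and 5.63 in Torin1 samples 1, 2 and 3 against 6.64 to 6.85 with DMSO.

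The genes most like each called gene over the 6 arrays were named by the distance between their values, each gene centred on its own mean. The search covered 10876 genes whose higher group mean was above the median gene. Symbols of the Gm-number, Rik and accession forms were left out. Nearest to Igf1 were Arhgap31 and Maf (Pearson r over 6 arrays 0.994 and 0.984), and nearest to Igfbp4 were Clcf1, a cytokine gene, and Slc25a37, a mitochondrial iron carrier gene (0.989 and 0.985). Synj2 and Arc were nearest to Igfbp3 (0.987 and 0.995), Cry2, a circadian clock gene, and Zc3h12c to Igfbp7 (0.986 and 0.995), and Arid5a and Dusp8 to Pappa (0.989 and 0.981). These r values describe arrays that share the difference between the groups. Clcf1, Synj2 and Dusp8 were above the median gene only with Torin1, so they entered the search through that group. Clcf1 shared with Igfbp4 a low Torin1 sample 3, its Torin1 values being 6.62, 6.81 and 5.31. Arid5a shared with Pappa a high one, with Torin1 values of 5.68, 6.04 and 6.21.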

How the data were processed

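RNA was amplified as cDNA (NuGEN Ovation Pico WTA) and biotin-labelled, per the labels' protocols. The deposited intensity values, 1 per probe set and array, come from RMA in Affymetrix Expression Console 1.1, with GCOS also named, per the submitters' processing notes. RMA gives the probe values of all arrays a common distribution before summarizing them, so changes are relative to the rest of the array. Settings and probe set build: not given in the sources used here. No background level per probe set was used, and precision is limited by the number of arrays.

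Of 41345 probe sets 23521 named 1 gene, 1814 several and 16010 none here. Each of 22180 genes was represented by its brightest probe set, by mean log2 over the 6 arrays. Values were log2(intensity + 1), with no filter on dim genes. The groups were compared with limma 3.58.1 (R 4.3.3; lmFit, then eBayes; two-sided), adjusted by Benjamini-Hochberg over all genes. The fit was tested on simulated data. An exact permutation test of 3 against 3 arrays cannot go below 0.1 and was not used. The 10 genes and the gene lists were chosen with earlier results of these data known.

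Named were all 10 genes, each called gene of the wider IGF list and of the list of other IGFBP-domain proteins with up to 3 more by smallest p, and 2 most similar genes per called gene. Arrays, marker genes and overlapping genes named beside a result, Igf1r, Igf2, Igfbp1, Stc1 and Htra3 were chosen after their values were seen. Motifs were searched in the RefSeq promoter table (GRCm38.p6), which held 9 of the 10 genes. The alternatives were other pseudocounts, a filter on dim genes, other scalings, other handling of probe sets, another variance prior, a block for the sample number, an average of Torin1 samples 2 and 3, and leaving out each array.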

Additional observations from a re-analysis of the deposited data

How the results depend on the processing

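Under 16 alternatives the 5 called genes kept their direction, and Igfbp4 and Pappa kept their call. Of the genes not called, Igfbp5 and Pappa2 each changed sign in 1 alternative (0.21 without DMSO sample 3 and -0.04 without Torin1 sample 3), without a call. The number of the 10 genes called higher was 4, and 2 to 5 when 1 array was left out; the number called lower was 1, and 0 to 2. No gene was called lower (0) with a pseudocount of 16, with arrays centred on their median or with the replicate block, where Igf1 had limma adjusted p of 0.0647, 0.0597 and 0.0911; the cause was not tested. Igfbp3 had 0.0724 with the block. Deviations from the group mean had correlations of -0.207, -0.299 and -0.148 between same-numbered samples, and of -0.115 to 0.31 between the others. Deviations within 3 arrays add up to 0, so these values cannot decide whether the sample numbers pair the arrays. With the block, the calls over all genes were 657 higher and 908 lower in place of 1138 and 1540. Over the left-out arrays these ran from 655 to 1389 and from 844 to 1694. Of the other IGF system genes 2 were called, and 2 to 4 without 1 array. Of the IGFBP-domain genes 2 were called, 2 to 5 without 1 array, and 4 when Torin1 samples 2 and 3 were averaged. Signal over background was not used here, which limits the dim genes Pappa2, Pappa and Igfbp3.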

Other observations

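Proteins outside the binding protein family that carry an IGFBP-type domain include the CCN matricellular proteins, the HTRA proteases, Crim1, Kazald1 and Esm1. Of 12 such genes 1 was called higher, 1 lower and 10 were not called, against 12.1% called in either direction over all genes. Their median change was 0.12, against 0.0098 over all genes. Crim1, which encodes a membrane protein that binds bone morphogenetic proteins, was at 9.15, 9.03 and 9.00 with DMSO and 9.73, 9.68 and 9.69 with Torin1. All Torin1 samples were higher and close together, and the rise was 0.64 ± 0.08 (SE; limma adjusted p 0.00247). Kazald1, a secreted protein gene, was at 8.56, 8.12 and 7.81 with DMSO and 6.76, 6.96 and 6.03 with Torin1, a fall of 1.58 ± 0.28 (limma adjusted p 0.0118). Both calls held without any 1 array.

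The CCN genes were not called over all 6 arrays. Ccn4 changed by 0.57 ± 0.17 (limma adjusted p 0.0810), Ccn6 by 0.44 ± 0.18 (limma adjusted p 0.201) and Ccn1 by 1.01 ± 0.59 (limma adjusted p 0.381). The value of Ccn1 rests on Torin1 sample 3, at 7.37 against 4.97 and 5.14 in the other Torin1 samples and 4.78 to 4.89 with DMSO. Esm1 was likewise high there, at 5.17 against 3.79 and 3.26. Without that sample Ccn2 was called lower, with a change of -0.73 (limma adjusted p 0.0105). Ccn4 and Htra3 were then called higher, by 0.74 and 0.64 (limma adjusted p 0.0159 and 0.00615).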
